A study of Rattus norvegicus with 26 samples.

Results

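The Gadd45 genes and the genes of the Myc network were examined in the DG (dentate gyrus, where the granule neurons of the hippocampus lie). The set comprised 9 genes taken by name from the deposited values (Gadd45a, Gadd45b, Gadd45g, Myc, Mycn, Mycl, Max, Mxi1 and Mxd4), out of 17910 genes in all. They stood on 17 of the 24012 transcript rows, and the rows of a gene were summed. All 9 genes passed the filter on low values, a mean over the rats of 5 or more normalized counts, which left 15595 genes to test.

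RNA came from male F344 rats, 6 months of age, with 1 library per rat. The Veh group (n = 10) received vehicle by gavage and, per the study's methods, belonged to an ongoing study of brain aging. The Dox group (n = 8) received doxorubicin, an anthracycline that damages DNA and is used in chemotherapy, by weekly intraperitoneal injection of 2 mg/kg over 4 weeks. The Dox + ABT group (n = 8) received the same doxorubicin and in addition the senolytic ABT-263, which blocks anti-apoptotic Bcl-2 proteins, by gavage at 12 mg/kg on 5 consecutive days every other week. There was no group given ABT-263 alone, so effects of ABT-263 and of its combination with Dox cannot be told apart. The study states no injection for Veh, so effects of Dox and of injection cannot be told apart either. All rats of the study went through water maze and inhibitory avoidance tests, and it reports slower swimming in Dox than in the other groups. The part of this testing in the values was not tested.

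The Gadd45 proteins are small stress proteins that are induced by DNA damage and by neuronal activity. They bind the kinase Map3k4 upstream of p38 and Jnk, the replication clamp Pcna and the cyclin kinase inhibitor Cdkn1a, and they take part in active DNA demethylation. Myc, Mycn and Mycl are transcription factors that bind DNA only as dimers with Max, at the E-box, and they activate genes of growth and ribosome formation. Mxi1 and Mxd4 compete with them for Max and recruit Sin3 corepressors to the same sites. Myc is also known to repress Gadd45 genes.

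Of the 9 genes, 7 matched an entry in a RefSeq table of promoters (build GRCr8, 250 bases before to 50 bases after the annotated start). The files themselves were aligned to rn6, so these sequences serve as annotation and not as places where reads were counted. The E-box (CACGTG, its own reverse complement), the letters that Myc/Max and Mxd/Max dimers are known to bind, occurred in 4 of the 7 promoters and in 6.418% of the 33469 promoters of the table. It lay 178 bases before the start in Gadd45b, 163 in Gadd45g, 33 in Max and 197 in Mxd4. The octamer (ATTTGCAT, searched on both strands), a motif known to be bound by POU factors, occurred in Gadd45a and Gadd45g and in 1.778% of all promoters. Of the other letters searched on both strands, GGGCGG occurred in 5 of the 7 (33.06% of all promoters), CCAAT in 4 (37.49%), TATAAA in 2 (14.22%), and the AP-1 site TGACTCA and the cyclic AMP element TGACGTCA in 0 (4.631% and 1.829%). The sequences of Gadd45a and Gadd45g are shown because they share the octamer, and those of Max and Mxd4 because both genes hold an E-box and were called between groups in the comparisons given later. Capitals mark the E-box and the octamer. A match of letters is a description and not a measured binding site.

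Gadd45a, chr4:97486750-97487049 (- strand): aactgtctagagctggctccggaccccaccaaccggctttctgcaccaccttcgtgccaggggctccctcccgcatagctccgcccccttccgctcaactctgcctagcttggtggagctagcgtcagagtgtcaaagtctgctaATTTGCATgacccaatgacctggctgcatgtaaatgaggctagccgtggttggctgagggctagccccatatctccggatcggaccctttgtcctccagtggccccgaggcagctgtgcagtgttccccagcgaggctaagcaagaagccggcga
Gadd45g, chr17:13530302-13530601 (- strand): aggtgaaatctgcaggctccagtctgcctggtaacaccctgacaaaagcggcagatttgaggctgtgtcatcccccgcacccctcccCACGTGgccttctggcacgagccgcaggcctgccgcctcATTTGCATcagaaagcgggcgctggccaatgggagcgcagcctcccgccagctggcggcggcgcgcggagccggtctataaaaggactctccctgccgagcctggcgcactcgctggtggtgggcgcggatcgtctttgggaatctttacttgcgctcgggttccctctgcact
Max, chr6:101395241-101395540 (- strand): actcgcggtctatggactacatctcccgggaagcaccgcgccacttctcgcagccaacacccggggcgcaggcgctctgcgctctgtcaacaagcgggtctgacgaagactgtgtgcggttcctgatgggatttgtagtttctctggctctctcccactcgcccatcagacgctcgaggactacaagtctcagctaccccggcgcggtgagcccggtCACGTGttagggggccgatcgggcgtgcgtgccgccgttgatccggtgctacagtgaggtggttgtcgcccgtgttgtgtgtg
Mxd4, chr14:80786531-80786830 (+ strand): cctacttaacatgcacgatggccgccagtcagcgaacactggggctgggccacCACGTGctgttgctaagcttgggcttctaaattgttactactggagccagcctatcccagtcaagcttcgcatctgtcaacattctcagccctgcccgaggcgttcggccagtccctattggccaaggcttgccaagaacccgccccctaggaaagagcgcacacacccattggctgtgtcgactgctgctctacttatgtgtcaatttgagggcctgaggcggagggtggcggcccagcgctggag

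**Figure D1:**
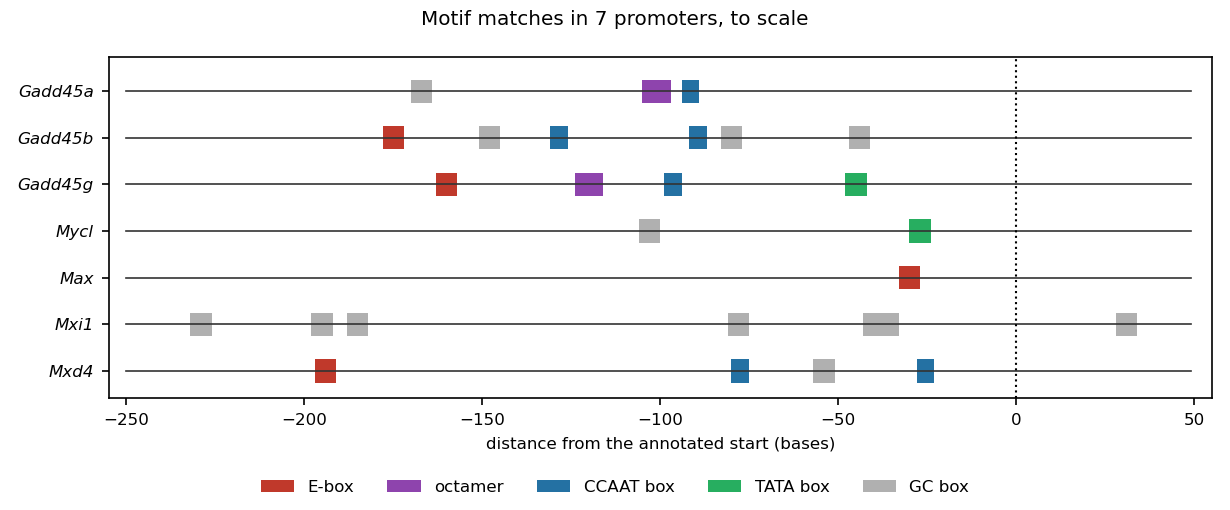
Motif matches on either strand in the 7 promoters, drawn to scale against the distance in bases from the annotated start (dotted line). E-boxes (red) appear in Gadd45b, Gadd45g, Max and Mxd4, and octamers (purple) in Gadd45a and Gadd45g.

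The libraries held an estimated 10166100 to 24326700 reads, and they differed within groups in a way that the labels do not name. After the group means were removed, 28.4% of what variance remained lay on 1 principal component, along which 16 libraries (a first kind, with 4 Veh, 5 Dox and 7 Dox + ABT) stood apart from the other 10 (a second kind, with 6, 3 and 1). Genes for ribosomal proteins made up 0.647% to 1.27% of a library of the first kind and 1.35% to 2.17% of one of the second. This ribosomal protein share averaged 1.48% ± 0.469 over the 10 Veh rats, 1.27% ± 0.366 over the 8 Dox rats and 1.11% ± 0.123 over the 8 Dox + ABT rats (mean ± SD, as for all ± values here). Mitochondrial genes made up 6.05% to 13.04% of libraries of the first kind and 8.59% to 17.1% of the second (medians 7.34% and 13.1%), and by group 11.9% ± 3.68, 8.47% ± 2.01 and 9.06% ± 3.13 in the order Veh, Dox and Dox + ABT. The part of this share in the results was not tested. Within groups, 5528 of the 15595 genes (35.4%) followed the share at p under 0.01, Gadd45g, Max, Mxi1 and Mxd4 among them. The comparisons are therefore given without and with the log2 share as a covariate, and for the called members, Myc and Mycn within the first kind as well. Since the share is itself measured from the RNA and differs between groups, what it removes may include effects of treatment, and the 2 cannot be told apart. Values are the authors' normalized counts (Median Ratio method), which are not all whole multiples of 1 read. Log2 fold changes are on the log2(value + 1) scale, which understates low genes. Genes were called at p under 0.01 in limma's moderated test, two-sided. The labels do not say whether rats of a group shared cages or days. The p-values set a difference between groups against the spread between rats, and do not cover a cage or day that differed between groups.

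Gadd45g was the member with the largest difference between Dox and Veh. It had 35.7 normalized counts in the lowest Veh rat, 77.2 at the median and 132 in the highest, and 68.2, 132 and 237 in Dox. In Dox + ABT it had 48.1, 130 and 149. Thus 4 of 8 Dox rats and 4 of 8 Dox + ABT rats lay above every Veh rat, and the groups overlapped. Means were 142 ± 70.0 for Dox (SD, n = 8) and 122 ± 32.2 for Dox + ABT (SD, n = 8), against 76.1 ± 28.6 for Veh (SD, n = 10). Gadd45g rose in Dox by 0.82 on the log2 scale against Veh (standard error 0.27, limma p = 0.00496, adjusted p = 0.292). It was the only one of the 9 members called there, against 2.87% of all tested genes (1.02% in the higher direction). With the ribosomal protein share as a covariate the difference was 0.64 (standard error 0.22, limma p = 0.00702), and Gadd45g was again the only member called, against 2.99% of all genes. The study names Gadd45g and Myc as increased by Dox from these same rats, so their direction is not independent evidence.

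In the treated groups the values of Gadd45g separated by kind of library. The 3 Dox rats of the second kind had 68.2 to 75.3 normalized counts, below each of the 5 Dox rats of the first kind, which had 128 to 237. The 1 Dox + ABT rat of the second kind had 48.1, below the 111 to 149 of the other 7. In Veh the kinds overlapped, at 74.4 to 132 in the first and 35.7 to 88.2 in the second. Within the first kind the difference between Dox and Veh was 0.90 (limma p = 0.000200; exact permutation test, two-sided, p = 0.0317; the smallest p this design allows is 0.00794), and within the second kind it was 0.28 (exact p = 0.369; smallest 0.0119). Over all libraries the exact test gave p = 0.0173. The call was lost when Veh replicate 9 (0.71, limma p = 0.0117), Dox replicate 1 (0.69, p = 0.0162), Dox replicate 2 (0.70, p = 0.0159) or Dox replicate 13 (0.74, p = 0.0133) was left out. In the fit with the share it held in 18 of the 26 fits that left out 1 rat, and was lost without Veh replicate 5, 9, 10, 11 or 12 or Dox replicate 1, 2 or 13 (differences of 0.52 to 0.63, p up to 0.0220). Against Veh, Dox + ABT differed by 0.70 (standard error 0.27, limma p = 0.0152), which did not pass and became 0.37 (p = 0.116) with the share as a covariate. It did pass with library weights (0.80, limma p = 0.000407), with the 2 groups fitted alone (0.70, p = 0.00741) and without the least correlated library of each group (0.97, p = 0.000409). Between Dox and Dox + ABT the difference was 0.12, with a 95% interval of -0.46 to 0.71 (limma p = 0.664). Within the first kind it was 0.44 (exact p = 0.0265; smallest 0.00126). On the log2 scale Gadd45g fell by 0.92 per doubling of the ribosomal protein share (standard error 0.23, limma p = 0.000465).

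**Figure D2:**
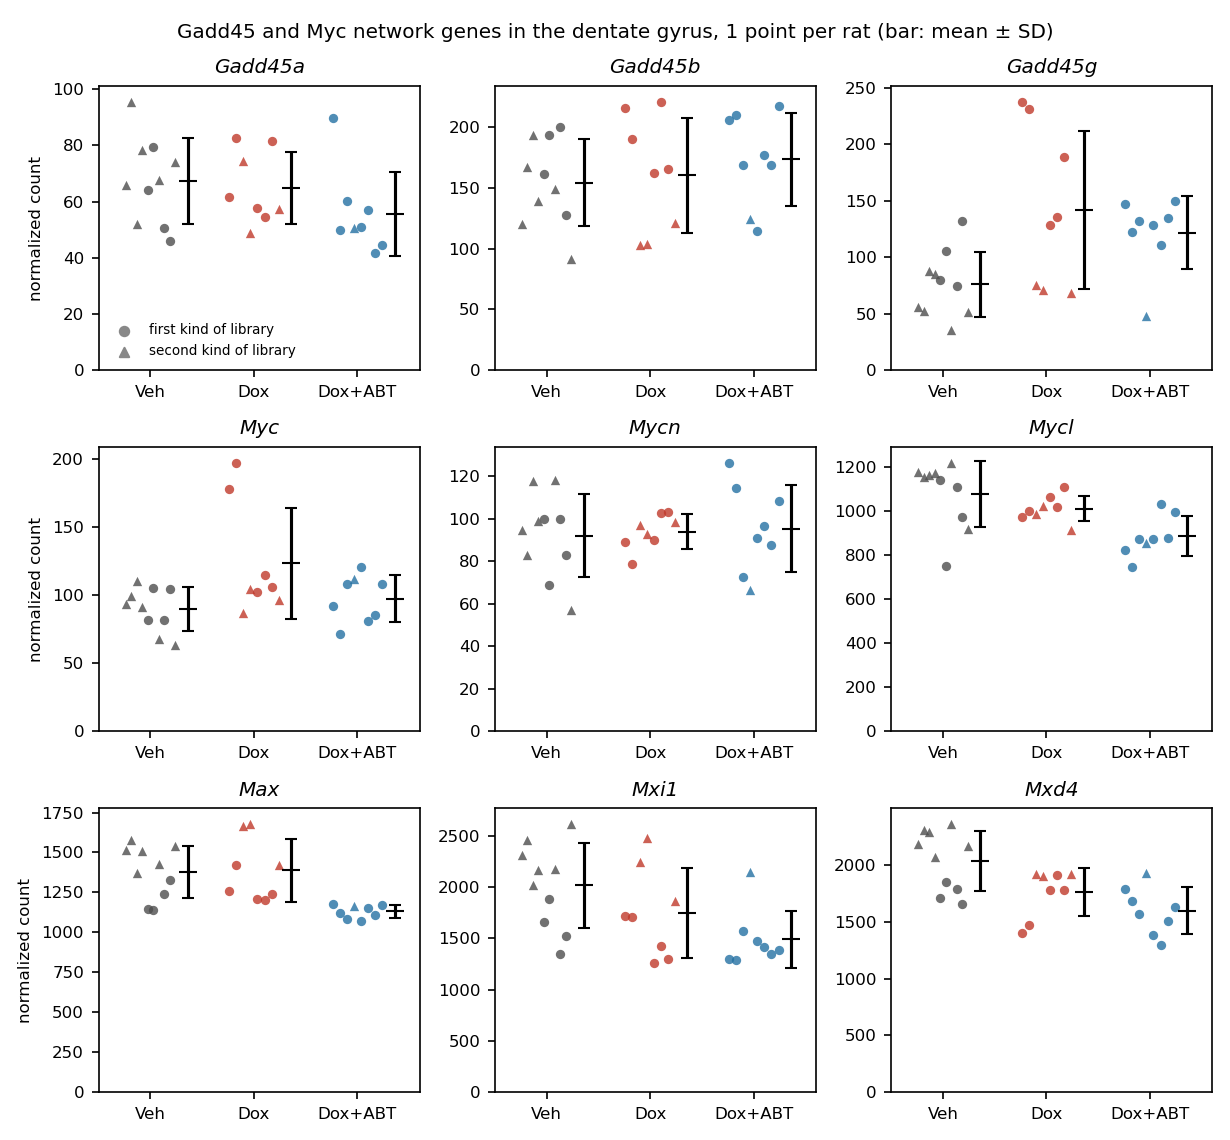
Normalized counts of the 9 genes, 1 point per rat, by group; circles are the first and triangles the second kind of library, and bars give the mean ± SD. The triangles of Gadd45g lie low in Dox and Dox + ABT, those of Max, Mxi1 and Mxd4 lie mostly high, and all 8 Dox rats lie above every Dox + ABT rat for Max.

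Gadd45a, the p53 target of the family, and Gadd45b, which is induced by neuronal activity, did not pass the test in any of the 3 comparisons, without or with the share as a covariate. Mean normalized counts of Gadd45a were 55.6 ± 15.0 for Dox + ABT (SD, n = 8), 64.9 ± 12.9 for Dox (SD, n = 8) and 67.4 ± 15.2 for Veh (SD, n = 10). Its log2 difference between Dox and Veh was -0.05 (95% interval -0.36 to 0.27), and between Dox + ABT and Veh it was -0.28 (-0.59 to 0.04), which passed with library weights alone (-0.41, limma p = 0.00544). Gadd45b, at 154 ± 35.6 for Veh, 160 ± 47.1 for Dox and 173 ± 38.1 for Dox + ABT, did not pass either, and its differences from Veh were 0.04 (-0.32 to 0.39) in Dox and 0.17 (-0.18 to 0.52) in Dox + ABT. With the share as a covariate the signs in Dox turned for both genes, to 0.01 for Gadd45a and -0.03 for Gadd45b. In Dox, Gadd45b had 103 to 121 normalized counts in the 3 rats of the second kind and 162 to 220 in the 5 of the first, the same order as Gadd45g.

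Myc had 63.3, 92.4 and 110 normalized counts in the lowest, median and highest Veh rat, 86.9, 105 and 197 in Dox, and 71.5, 100 and 121 in Dox + ABT. The groups overlapped, with 3 of 8 Dox rats above every Veh rat. The 2 highest, Dox replicates 1 (178) and 2 (197), were also the 2 highest for Gadd45g (237 and 231). The difference between Dox and Veh was 0.42 on the log2 scale (95% interval 0.10 to 0.73, limma p = 0.0110, adjusted p = 0.358), just outside the threshold. With the share as a covariate it was 0.39 (p = 0.0172). Leaving out single rats moved it between 0.31 and 0.48, and it passed the threshold without Veh replicate 3, 6 or 11, Dox replicate 5, 9 or 14, or Dox + ABT replicate 2. Dox + ABT differed from Veh by 0.12 (-0.20 to 0.43, limma p = 0.452) and Dox from Dox + ABT by 0.30 (-0.03 to 0.63, p = 0.0735). Between Dox and Veh the difference was 0.54 within the first kind (limma p = 0.0173; exact permutation p = 0.0794, smallest 0.00794), which did not pass. Within the second kind it was 0.15 (limma p = 0.460; exact p = 0.476). There the exact test could not pass, as its smallest p of 0.0119 lies above the threshold. Over the first kind alone, Dox was higher than Dox + ABT by 0.51 (limma p = 0.00983; exact permutation p = 0.0290, smallest 0.00126). Myc stood on 3 transcript rows, of which the first carried 75.7% of its counts, and on that row the difference between Dox and Veh was 0.44 (limma p = 0.0184).

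Mycn, known from neural progenitors, differed between the groups by less than its spread, with mean normalized counts of 95.4 ± 20.5 for Dox + ABT (SD, n = 8), 93.9 ± 8.13 for Dox (SD, n = 8) and 92.1 ± 19.6 for Veh (SD, n = 10). Its log2 differences were 0.06 (95% interval -0.22 to 0.33) for Dox and 0.05 (-0.23 to 0.33) for Dox + ABT against Veh, and 0.05 and 0.04 with the share as a covariate. Within the first kind they were 0.09 (exact permutation p = 0.532) and 0.17 (exact p = 0.306).

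Mycl, the third Myc gene, fell in Dox + ABT. It had 748, 1146 and 1217 normalized counts in the lowest, median and highest Veh rat, 915, 1009 and 1108 in Dox, and 748, 873 and 1033 in Dox + ABT. All 8 Dox + ABT rats and all 8 Dox rats lay below the Veh median, and the ranges overlapped. The difference between Dox + ABT and Veh was -0.28 on the log2 scale (standard error 0.08, limma p = 0.00250, adjusted p = 0.109), and -0.27 (p = 0.00474) with the share as a covariate. The exact permutation test over all libraries gave p = 0.0103, which did not pass. In limma's test the call held with any 1 rat left out, and with the share in 22 of 26 such fits, being lost without Veh replicate 5 or 10 or Dox + ABT replicate 1 or 2 (p up to 0.0140). The slope of Mycl on the share was 0.03 (limma p = 0.742). Among the rats of the first kind the difference was -0.15 (exact permutation p = 0.273). Dox was 0.20 higher than Dox + ABT (limma p = 0.0331; exact p = 0.00622), and differed from Veh by -0.08 (-0.25 to 0.09).

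Max, the partner that every Myc and Mxd protein needs to bind DNA, separated the Dox rats from the Dox + ABT rats. It had 1139, 1398 and 1579 normalized counts in the lowest, median and highest Veh rat, 1200, 1340 and 1678 in Dox, and 1073, 1140 and 1180 in Dox + ABT. All 8 Dox rats lay above every Dox + ABT rat, which no other member showed. Over all tested genes the groups did not overlap in 0.135% (21 genes, in either direction). Dox was higher by 0.28 on the log2 scale (standard error 0.08, limma p = 0.00213, adjusted p = 0.181), and by 0.24 (standard error 0.06, p = 0.00086, adjusted p = 0.110) with the share as a covariate. Max was the only member called in this comparison, against 4.03% of all tested genes without and 4.94% with the covariate. The exact permutation test gave p = 0.0001554, the smallest that 8 against 8 rats allow, and p = 0.00126 within the first kind, also the smallest possible there, while limma's test within that kind gave 0.16 (p = 0.0219) and did not pass. Among the first kind the ranges were 1200 to 1423 in Dox and 1073 to 1180 in Dox + ABT. The call held in limma's test when each rat was left out in turn, both without the share (0.24 to 0.31) and with it (0.21 to 0.26).

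Max also fell in Dox + ABT against Veh, by 0.28 on the log2 scale (limma p = 0.00156, adjusted p = 0.109), while Dox and Veh differed by 0.00 (95% interval -0.16 to 0.17). With the share as a covariate the difference between Dox + ABT and Veh was -0.18 (p = 0.00858). In that fit the call held in 12 of the 26 fits that left out 1 rat, and without Veh replicate 11 the difference was -0.09 (p = 0.160). Within the first kind it was -0.10 (exact permutation p = 0.0515). The 7 Dox + ABT rats of the first kind had 1073 to 1180 normalized counts and the 4 Veh rats of that kind 1139 to 1328. Max stood on 3 transcript rows. The first, with 84.0% of the counts, gave 0.30 between Dox and Dox + ABT (limma p = 0.00153), and the second, with 15.7%, gave 0.16 (standard error 0.14, p = 0.256). The spread of Max in Dox + ABT was small, at 40.0 normalized counts against 196 in Dox and 162 in Veh (SDs).

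**Figure D3:**
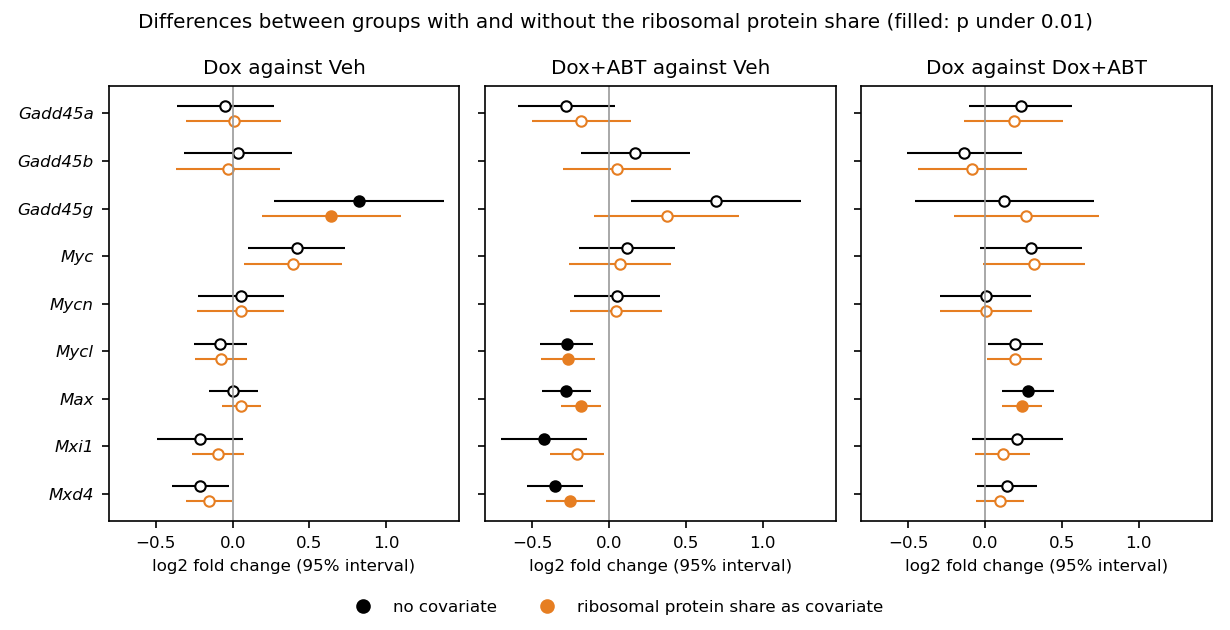
Log2 fold changes of the 9 genes with 95% intervals in the 3 comparisons, without (black) and with (orange) the ribosomal protein share as a covariate; filled points have p under 0.01. Gadd45g is filled in Dox against Veh, Mycl, Max and Mxd4 in Dox + ABT against Veh in both fits and Mxi1 in the fit without the covariate, and Max in Dox against Dox + ABT.

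The 2 antagonists were also lower in Dox + ABT than in Veh. Mxd4 had 1656, 2115 and 2356 normalized counts in the lowest, median and highest Veh rat, 1397, 1839 and 1915 in Dox, and 1296, 1596 and 1927 in Dox + ABT. All 8 rats of each treated group lay below the Veh median, and 5 of 8 Dox + ABT rats lay below every Veh rat. Mxd4 fell in Dox + ABT by 0.35 on the log2 scale (standard error 0.09, limma p = 0.000563, adjusted p = 0.108), and its difference was -0.25 (p = 0.00317) with the share as a covariate. The latter call was lost without Veh replicate 11 (-0.24, limma p = 0.0120). In Dox the difference from Veh was -0.21 (95% interval -0.39 to -0.03, limma p = 0.0273), which did not pass but did with library weights (-0.25, p = 0.00450) and without the least correlated library of each group (-0.26, p = 0.00721). Within the second kind all 3 Dox rats (1897 to 1915) lay below the 6 Veh rats (2065 to 2356; exact permutation p = 0.0119, the smallest possible), and within the first kind the difference was -0.08 (exact p = 0.444).

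Mxi1 had 1353, 2094 and 2614 normalized counts in the lowest, median and highest Veh rat, 1263, 1714 and 2482 in Dox, and 1294, 1399 and 2145 in Dox + ABT. Of the Dox + ABT rats, 3 of 8 lay below every Veh rat, and the highest was the 1 library of the second kind. Mxi1 fell in Dox + ABT by 0.42 on the log2 scale (standard error 0.14, limma p = 0.00428, adjusted p = 0.113). With the share as a covariate the difference was -0.21 (p = 0.0228) and no longer passed, except without Dox + ABT replicate 4 (-0.27, p = 0.00288). Mxi1 followed the ribosomal protein share most closely of the 9 genes, with a slope of 0.62 per doubling (standard error 0.09, limma p = 9.4e-08). Within each group the first kind had the lower mean, at 1605, 1482 and 1399 normalized counts in Veh, Dox and Dox + ABT against 2291, 2196 and 2145 in the second. Between Dox and Veh the difference was -0.21 (95% interval -0.49 to 0.07), and -0.50 with library weights (limma p = 0.000113). The first transcript row of Mxi1 carried 91.9% of the counts. Between Dox + ABT and Veh it gave -0.47 (limma p = 0.00346), and between Dox and Veh -0.23 (p = 0.124). Between Dox + ABT and Veh the second row, with 4.81%, gave 0.19 (limma p = 0.459), and the third, with 3.24%, gave -0.07 (p = 0.814).

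In all, 4 of the 9 members were lower and 0 higher in Dox + ABT than in Veh at p under 0.01, against 7.84% of all tested genes (3.95% in the lower direction). With the share as a covariate 3 members were lower, against 2.53% of all genes in either direction (225 genes lower and 170 higher). The median log2 difference of the 9 genes was -0.28, and -0.18 with the share as a covariate, beside 0.00 for all genes in both fits. Within the first kind (7 Dox + ABT and 4 Veh rats) limma's test called 0 of the 9, with differences of -0.15 for Mycl, -0.10 for Max, -0.19 for Mxi1 and -0.18 for Mxd4 and p-values from 0.0771 to 0.188. Adjusted over all tested genes, 0 members passed 0.05 in limma's test, in Dox against Veh (0.0192% of all genes), in Dox + ABT against Veh (0%) or in Dox against Dox + ABT (0%). Dox against Veh and Dox + ABT against Veh share the Veh rats, and so the values of a gene in the 2 comparisons are not independent.

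**Figure D4:**
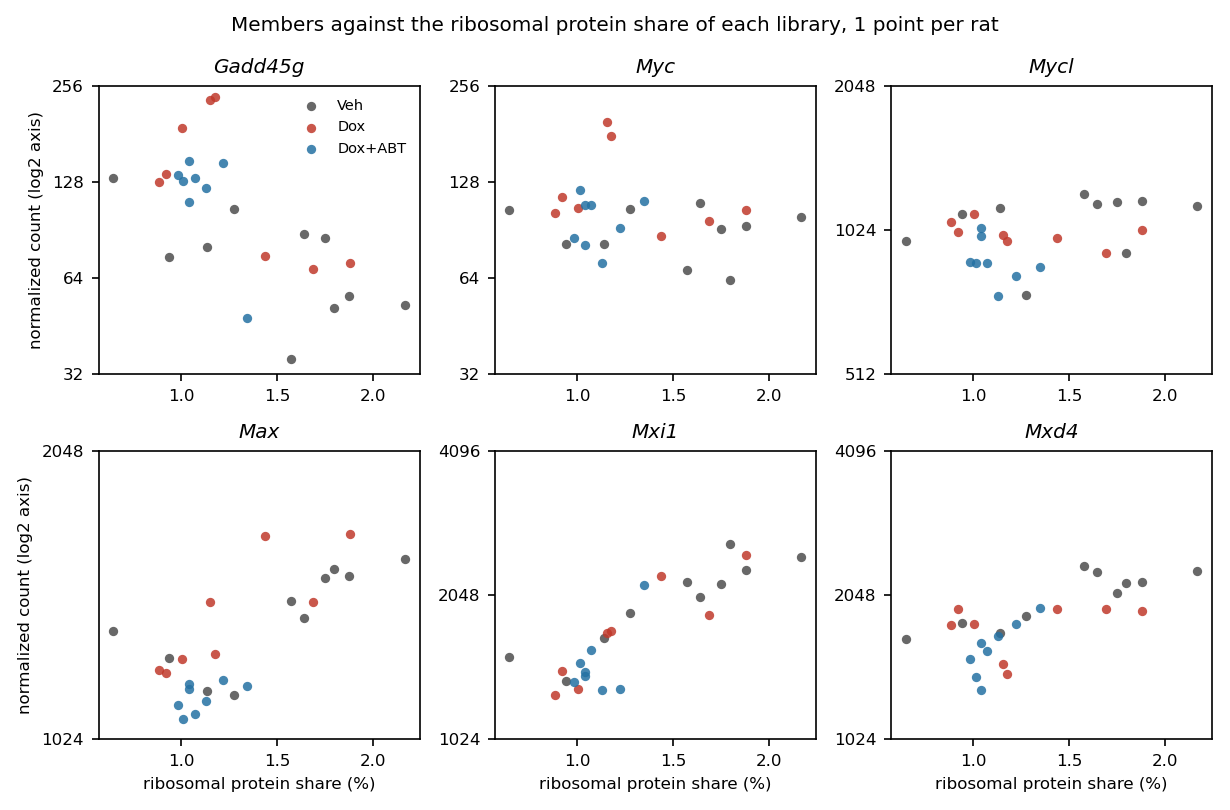
Normalized counts of 6 genes (log2 axis) against the share of ribosomal protein genes in each library (percent), 1 point per rat, coloured by group. Mxi1, Max and Mxd4 are higher and Gadd45g is lower in libraries with a larger share, while Mycl and Myc show no such slope.

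The tissue was checked against marker genes. All 6 genes of the granule neuron list were present. Of these, Rbfox3 marks neurons in general, and it ran from 2070 to 10248 normalized counts over all rats. The summed level of the 6 ran from 11009 to 14708 over the Dox + ABT rats, 13002 to 20092 over Dox and 12592 to 18953 over Veh. It was lower on average in the group in which Mycl, Max, Mxi1 and Mxd4 were lower. Microglial markers (5 of 5 found) summed to 1857 to 3187 for Dox, 2078 to 3592 for Dox + ABT and 2269 to 4523 for Veh. Astrocyte markers (5 of 5) summed to 29841 to 37275 for Dox, 34806 to 50607 for Dox + ABT and 36226 to 56558 for Veh. The globin and red cell genes (4 of 4) summed to 2327 to 25997 for Veh, 3608 to 128552 for Dox and 3172 to 11576 for Dox + ABT. Among the 5 Dox rats of the first kind they stood at 25720 and 29116 in replicates 1 and 2, which had the highest Gadd45g and Myc, and at 3608 to 4198 in the other 3. The highest sums in Dox were those of replicates 5 and 7 of the second kind (91669 and 128552), whose Gadd45g (75.3 and 71.2) and Myc (86.9 and 105) lay well below those of replicates 1 and 2. The choroid plexus list (5 of 5) summed to 7.61 to 121 for Veh (median 73.8), 10.0 to 150 for Dox (43.0) and 25.0 to 351 for Dox + ABT (131), with Kl, Folr1, Clic6 and Kcnj13 at 0 in some rats, so that it was highest in the group in which 4 members were lower. The leukocyte list (4 of 5 found) summed to 0 to 152, also with each gene at 0 in some rats. Endothelial markers (4 of 5 found) summed to 1096 to 4377 for Veh (mean 2186), 1801 to 4080 for Dox (2798) and 923 to 2745 for Dox + ABT (1795), and were thus on average higher in Dox than in Dox + ABT, as Max was. Oligodendrocyte markers (5 of 5) averaged 65501 for Veh, 52536 for Dox and 61846 for Dox + ABT, those of their precursors (3 of 3) 1929, 1901 and 1772, and CA pyramidal neuron markers (3 of 3) 7287, 6657 and 7159. Oligodendrocyte sums ran from 39047 to 111718 over Veh, 43508 to 68103 over Dox and 46007 to 98587 over Dox + ABT. CA pyramidal sums varied widely within groups, from 2706 to 12934, 2566 to 12885 and 2871 to 18476 in that order. The 18476 was that of Dox + ABT replicate 4, the 1 library of the second kind in its group. The part of cell composition in these results was not tested, and in bulk tissue fewer cells of a type and less RNA per cell cannot be told apart.

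Over pairs of members, within-group deviations were correlated in 36 pairs. Because the libraries fall into 2 kinds, coefficients are given within kinds. Over all 26 rats 7 pairs had an adjusted p under 0.05 (3 positive, 4 negative; permutation test, Benjamini-Hochberg over the 36 pairs), whereas 0 did in the first kind (n = 16; 4 at an unadjusted p under 0.05) and 1 in the second (n = 9). The 1 Dox + ABT rat of the second kind was left out there. The pair in the second kind was Mycn with Mxi1 (Pearson r = -0.70, permutation p = 0.0009, adjusted p = 0.0333; Spearman rho = -0.77, adjusted p = 0.108; r = -0.68 without the 2 rats farthest out). In the first kind the same pair had r = -0.65 (permutation p = 0.00468, adjusted p = 0.0842; rho = -0.63; r = -0.62 without the 2 rats farthest out). Myc and Mxi1 had r = 0.78 in the first kind (permutation p = 0.00307, adjusted p = 0.0842; rho = 0.71; r = 0.67) and r = -0.29 in the second (adjusted p = 0.819). Gadd45g and Myc had r = 0.73 in the first kind (permutation p = 0.0104, adjusted p = 0.125; rho = 0.69; r = 0.70 without the 2 rats farthest out) and r = 0.65 in the second (adjusted p = 0.591; r = 0.23). Max and Mxi1 had r = -0.04 in the first kind (adjusted p = 0.943) and 0.90 in the second (adjusted p = 0.0583).

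The genes whose within-group pattern was most like that of each called member were found among the 12128 genes whose mean reached 50 normalized counts, over 26 rats, as a description. They were L3mbtl2 (r = 0.94), Uhrf1 (0.93) and NEWGENE_1308612 (0.93) for Gadd45g, Fstl4 (0.92), Pabpc1 (0.91) and Vps53 (0.89) for Max, and Entpd2 (0.91), Kcng4 (0.90) and Anxa5 (0.89) for Mxd4. For Mxi1 they were Ca6 (0.95) and 2 genes of the ribosome and its assembly, Rpl5 (0.94) and Nop53 (0.93). For Mycl they were Rtn4rl1, a Nogo receptor homolog (0.79), Gabbr2, a GABA-B receptor subunit (0.75), and Osbp2 (0.75). Values of 1 rat come from 1 library, whose depth and kind all genes share, and after removal of the ribosomal protein share the coefficients ran from 0.75 to 0.90.

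The other genes of the pathways were taken from lists drawn up for this purpose. Of 7 other genes of the Max network, 6 were tested. Mlxip, a partner of Mlx that senses glucose metabolites, rose in Dox + ABT against Veh by 0.44 on the log2 scale (332 ± 88.5 to 439 ± 52.9 normalized counts, limma p = 0.00414), and differed by 0.20 (p = 0.0135) with the share as a covariate. Mxd1, a further Max-binding repressor, was lower in Dox than in Dox + ABT by 0.28 (limma p = 0.00506; -0.24, p = 0.00383 with the share), with 492 ± 54.9 and 597 ± 46.6 normalized counts, the opposite direction to Max. In that comparison with the share as a covariate, Mnt, also a Max-binding repressor, was higher in Dox by 0.21 (limma p = 0.00567).

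Of 17 cofactors, turnover factors and corepressors, 0 passed in Dox against Veh (2.87% of all tested genes) and 1 in Dox + ABT against Veh (7.84%). This was Usp28, a deubiquitinase that stabilises Myc protein, which rose by 0.56 on the log2 scale (323 ± 97.8 to 462 ± 79.5 normalized counts, limma p = 0.00172; 0.37, p = 0.0126 with the share as a covariate). Of 24 known targets of Myc, 0 passed in Dox against Veh (2.87% of all tested genes) and 0 in Dox against Dox + ABT (4.03%). A list of this size would hold few called genes at those shares. The list medians were -0.02 and 0.08 on the log2 scale. In Dox + ABT against Veh 2 of the 24 passed in opposite directions, 8.33% against 7.84% of all tested genes, as the 1 of 17 cofactors was 5.88%. The helicase subunit Mcm7 fell by 0.42 (300 ± 40.7 to 223 ± 27.3 normalized counts, limma p = 0.000779; -0.31, p = 0.00521 with the share as a covariate). The transferrin receptor Tfrc rose by 0.64 (543 ± 186 to 815 ± 161, p = 0.00258; 0.45, p = 0.0185 with the share as a covariate).

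Of 13 partners and effectors of Gadd45, 12 were tested. Cdkn1a, the cyclin kinase inhibitor p21, rose in Dox by 1.20 on the log2 scale against Veh (limma p = 0.00270) and was higher by 1.10 than in Dox + ABT (p = 0.00768). With the share these were 1.15 (limma p = 0.00433) and 1.14 (p = 0.00661). Its mean was 189 ± 205 normalized counts for the Dox rats, where the SD exceeded the mean, against 57.4 ± 22.4 for Veh and 59.7 ± 16.8 for Dox + ABT. Map3k4, the kinase that Gadd45 proteins activate, was lower in Dox + ABT (1413 ± 150 normalized counts) than in Dox (1673 ± 131; 0.25 on the log2 scale, limma p = 0.00131) and than in Veh (1611 ± 102; -0.19, p = 0.00643). The first of these calls held with the share as a covariate (0.24, limma p = 0.00120) and the second was lost (-0.18, p = 0.0118). Among 12 transcription factors that act on Gadd45 genes, Ddit3 fell in Dox against Veh by 0.28 (571 ± 67.8 to 472 ± 78.0, limma p = 0.00732; -0.28, p = 0.00873 with the share). Foxo3 passed with the share as a covariate alone, lower in Dox + ABT than in Veh by 0.43 (limma p = 0.000565) and higher in Dox than in Dox + ABT by 0.43 (p = 0.000566).

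Of 10 immediate early genes, which neuronal activity induces along with Gadd45b and Gadd45g, 2 fell and 0 rose in Dox against Veh, where 2.87% of all tested genes were called (1.85% in the lower direction). Gadd45g rose there. Npas4 fell by 1.16 on the log2 scale (34.1 ± 9.35 to 16.8 ± 11.9 normalized counts, limma p = 0.000828; -1.31, p = 0.000104 with the share) and Arc by 0.76 (1462 ± 483 to 934 ± 502, p = 0.00883; -0.73, p = 0.0134 with the share as a covariate). Against Dox + ABT, Npas4 was lower in Dox by 1.20 (limma p = 0.000991; -1.09, p = 0.00125 with the share), and Btg2, which is also a p53 target, was higher in Dox by 0.45 (539 ± 162 against 386 ± 62.8 normalized counts, p = 0.00188; 0.44, p = 0.00234 with the share). The list median was -0.19 in Dox and -0.17 in Dox + ABT against Veh, beside 0.00 for all tested genes in both. With the share as a covariate, Junb was lower in Dox + ABT than in Veh by 0.36 (limma p = 0.00864).

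**Figure D5:**
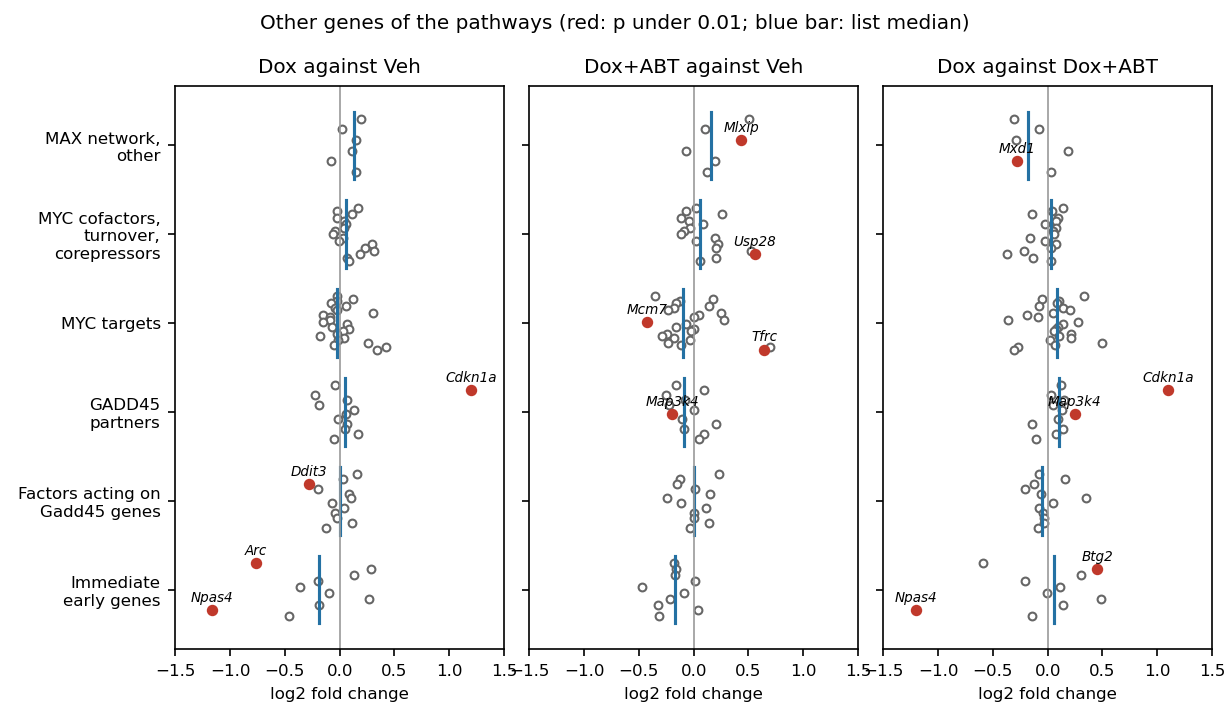
Log2 fold changes of the other pathway genes in the 3 comparisons without a covariate, 1 point per gene, with genes at p under 0.01 in red and the list medians as blue bars. Cdkn1a lies near 1.1 to 1.2 in both comparisons of the Dox group and Npas4 near -1.2, while the Myc targets scatter around 0.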

How the data were processed

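RNA was isolated from the DG of a single hemisphere of each rat, poly(A) RNA was selected, and libraries were sequenced on an Ion Proton. Per the labels, reads were aligned to rn6 with STAR 2.5.3a in Partek Flow. The deposited values are a signal of normalized counts per transcript row, which the authors made with the Median Ratio method, and the authors tested them with DESeq2. No test for counts was applied here, since whole multiples of 1 read (tolerance 0.01) made up 74.4% to 77.4% of a library's low values, over genes on 1 row. Estimated reads come from that step, and at this depth counting error is relatively larger for the members with low normalized counts.

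Rows were summed by gene ID, and genes with a mean of at least 5 were fitted with limma 3.58.1 (R 4.3.3, variance trend) on log2(value + 1), with all 26 rats in 1 fit and Benjamini-Hochberg adjustment over the 15595 genes. The ribosomal protein share is the percent of normalized counts on 88 genes. Each rat's group and replicate number was taken from its label. For correlations 100000 permutations were drawn (seed 1), and exact permutation tests enumerated all splits. The fit was tested on simulated data. Python 3.11.15, scipy 1.17.1 and matplotlib 3.10.9 were used (TMM factors were computed directly). All members are named. Of the other lists, genes that passed in a comparison are named, and the 3 genes most like each called member. Junb, Mnt and Foxo3 were named after their values were seen. The members and lists were chosen with earlier results of these data known. Each rat was left out in turn, and pseudocounts, filters, scalings, weights, covariates, kinds of library and the replicate number were varied. Coordinates in rn6 and promoters of Myc and Mycn were not used here.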

Additional observations from a re-analysis of the deposited data

Results flagged for a closer look

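In each group the highest and lowest rat of each member was compared with the others by Dixon's ratio, which chance passes in about 1 in 20 groups, and 3 of 27 sets passed. In Dox + ABT, replicate 1 was far above the others for Gadd45a, at 89.6 normalized counts with the next rat at 60.2. Dox + ABT replicate 4 was far below for Gadd45g, at 48.1 with the next at 110.9, and far above for Mxi1, at 2145 with the next at 1572. Replicate 4 was the 1 library of the second kind in its group.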

How the results depend on the processing

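Pseudocounts, filters on low values, quantile normalization, the variance trend, robust moderation and single transcript rows left the number of called members as reported. Library weights, leaving out the third group or the least correlated libraries, TMM factors, covariates, the kinds of library, the exact test and the replicate number did not, and the cause was not tested. The median of all genes stayed within 0.02 of 0 on the log2 scale in every setting. Apart from fits that left out 1 rat, 25 member values turned sign, 21 lost and 12 gained a call, and 482 did neither. TMM or quantile scaling together with the ribosomal protein share, the share with each rat left out, and correlations within kinds were added after the data were seen.

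Over all genes, the reported numbers of calls were 448 for Dox against Veh, 1222 for Dox + ABT against Veh and 629 for Dox against Dox + ABT. Library weights gave 3150, 5297 and 1612. Within the first kind they were 742, 172 and 1281, and within the second, where the lone Dox + ABT rat was assumed to vary like the others, 394 for Dox + ABT against Veh and 332 for Dox against Dox + ABT. Without the least correlated library of each group (Veh replicate 11, Dox replicate 5 and Dox + ABT replicate 4), Dox against Veh gave 896 and Dox + ABT against Veh 2850. For Dox + ABT against Veh the share gave 395, the kind 214, TMM factors with the share 395, and quantile normalization with the share 375.

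Of the 9 members, 1, 4 and 1 were called as reported. In Dox against Veh, library weights called 3 (Mxi1 and Mxd4 added as lower), TMM factors 2 (Myc added), the fit without the least correlated libraries 3 (Myc and Mxd4 added), the second kind 0 and the exact permutation test 0. In Dox + ABT against Veh, library weights called 6, the fit of the 2 groups alone 5 and the fit without the least correlated libraries 5, each with Gadd45g added as higher and library weights with Gadd45a (-0.41, p = 0.00544) added as lower, whereas the kind as covariate called 2, quantile normalization with the share 2, the first kind alone 0 and the second, with 1 Dox + ABT rat, 0. Mycl lost its call there in the exact permutation test (p = 0.0103). Max and Mxi1 lost theirs with the kind as covariate, and also under quantile normalization with the share. In Dox against Dox + ABT, the second kind called 0, the first kind 1 (Myc in place of Max) and the exact permutation test 2 (Mycl added). Of the other pathway genes, 5 passed in Dox + ABT against Veh, and 3 with the share (7.84% and 2.53% of all tested genes). Of these only Mcm7 passed in both, Mlxip, Usp28, Tfrc and Map3k4 were lost, and Junb and Foxo3 were added. The 7 correlated pairs became 2 with the share removed, 0 in the first kind and 1 in the second.

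Several log2 differences turned sign. In Dox against Veh, Max became -0.15 with library weights and -0.040 without the least correlated libraries. Gadd45a there became 0.0075 with the share (0.011 with TMM factors and 0.0098 with quantile normalization), and 0.18 within the first kind. Gadd45b became -0.030 with the share (-0.026 and -0.037 under those scalings), -0.076 with the kind and -0.35 within the second kind, and Mycl became 0.075 within the first. In Dox + ABT against Veh, Gadd45b became -0.064 with the kind as covariate and -0.16 within the second kind, where Gadd45g, 0.70 over all libraries, became -0.28 and Mycn -0.47. In Dox against Dox + ABT, Gadd45b became 0.018 with library weights and 0.10 within the first kind. Mycn there became -0.088 within the first kind and -0.073 without the least correlated libraries, and within the second kind Myc, 0.30 over all libraries, became -0.22 and Mxd4 -0.013. Values of Dox + ABT within the second kind rest on 1 library and say nothing about stability.

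With the replicate number as a block, calls over all genes were 765 in Dox against Veh and 403 in Dox against Dox + ABT, and members called were 2 (Myc added) and 0 (Max at 0.29, limma p = 0.0265). In Dox + ABT against Veh 3 members were called, Mycl being at -0.25 (p = 0.0259). In this block fit Max became -0.017 and Mycn -0.15 in Dox against Veh, and Mycn -0.26 in Dox against Dox + ABT. The numbers do not pair the rats. Rats with the same number had deviations that correlated at 0.00721 to 0.241 over 3 pairs of Dox and Dox + ABT, at -0.222 to 0.202 over 5 pairs of Veh and Dox, and at -0.188 to 0.442 over 8 pairs of Veh and Dox + ABT.

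With 1 rat left out, without or with the share, calls over all genes ran from 266 to 707 in Dox against Veh, from 119 to 2130 in Dox + ABT against Veh and from 419 to 1117 in Dox against Dox + ABT, and members called from 0 to 2, 1 to 5 and 1 to 1. Without the share, Veh replicates 1, 2, 9, 10 and 11, Dox replicates 1 and 2, and Dox + ABT replicates 3, 5 and 6 each moved one of these numbers over all genes by more than 1.5 times. Values that turned sign ran from -0.10 to 0.12 for Gadd45a, -0.19 to 0.12 for Gadd45b, -0.036 to 0.13 for Max and -0.017 to 0.099 for Mycn in Dox against Veh. In Dox + ABT against Veh they ran from -0.16 to 0.25 for Gadd45b and -0.024 to 0.13 for Mycn. In Dox against Dox + ABT they ran from -0.054 to 0.34 for Gadd45g and -0.070 to 0.072 for Mycn. Counting error is relatively larger for Gadd45a, Gadd45b, Gadd45g, Myc and Mycn, with group means of 55.6 to 173 normalized counts, than for the other 4 members.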
